A study of Mus musculus with 12 samples.

Results

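The nuclear receptors are a family of transcription factors, many of them switched by fat-soluble ligands such as bile acids, oxysterols, fatty acids, steroids, thyroid hormone and retinoic acid. The 36 genes described here were taken from a fixed list of receptor symbols. The list was not computed from their values, but it was chosen with earlier results of these data known. Of these, 35 were measured, each on a probe set annotated to exactly 1 gene, out of 18193 genes measured in all. Nr1h2 is not analysed here. Where a gene had several probe sets, as 21 of the 35 did, the one with the highest mean over the 12 arrays stands for it, and its other probe sets are described beside it.

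The values are log2 intensities from Affymetrix GeneChip arrays hybridised with liver RNA of mice aged 3 months, labelled as strain C57Bl/6. The wild type group had 4 arrays, the Atp7b-/- group had 4 and the group of Atp7b-/- mice that received supplemental zinc had 4, so both mutant groups lack Atp7b and only the last received an agent. Atp7b is the ATPase by which hepatocytes move copper into bile. The labels do not state the hour of sampling or whether each array came from a separate animal. What the p-values weigh is thus the spread between arrays, which may be technical.

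Receptors of this family bind DNA through a domain folded around zinc ions, and most of the ligand-activated liver receptors bind as pairs with a retinoid X receptor. In the liver, FXR (Nr1h4) senses bile acids and induces the repressor SHP (Nr0b2), which has no DNA-binding domain of its own and damps bile acid synthesis. PPARA governs fatty acid oxidation, LXR the disposal of sterols, CAR and PXR the clearance of foreign compounds, and HNF4A the hepatocyte programme as a whole.

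Hepatocyte markers were similarly high in all groups (means of 7 of 8 listed genes between 14.1 and 14.2 on every array). By limma 0 of the 7 changed without Atp7b, against 24.6% of all genes. With zinc against without, 1 was lower, against 4.84% of all genes. Atp7b itself lay between 8.51 and 8.69 in wild type, between 6.91 and 7.25 in untreated and between 6.57 and 6.98 in zinc-treated Atp7b-/-. The place of its probe set in the gene was not examined. Zinc-treated replicates 2 and 3 carried pancreatic acinar transcripts, with a mean of 9.65 and 7.15 over 10 of 12 listed markers, against 5.67 to 6.03 on the other arrays. Untreated replicate 1 had the lowest median correlation within its group, 0.991, where the other 3 had 0.996. The 3' minus 5' difference of the Actb and Gapdh controls, which grows as RNA breaks down, was 0.79 to 0.88 in untreated Atp7b-/-, 0.62 to 0.78 in wild type and 0.54 to 0.74 with zinc. The first range lies above the others, so RNA quality and group cannot be told apart in the comparisons that use untreated Atp7b-/-.

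The promoters of Nr0b2 and Rarb are shown because these genes had the largest fall and one of the 2 largest rises among the receptors, and because each is itself known as a target of a receptor in the list. Both are the 250 bases before a RefSeq start of the gene in GRCm38.p6, written 5′ to 3′ on the gene's own strand. For Rarb this start lies inside the gene, which spans 16430839 to 17082331 on chromosome 14. Nr0b2 lies at chr4:133553126-133553375 on the plus strand, and the capitals mark TCAAGG, the core of the motif bound by LRH-1 (Nr5a2), and the E-box CACGTG. Rarb lies at chr14:16575477-16575726 on the minus strand, and the capitals mark a direct repeat, GGTTCA and AGTTCA with 5 bases between, known as the retinoic acid response element of this gene.
Nr0b2: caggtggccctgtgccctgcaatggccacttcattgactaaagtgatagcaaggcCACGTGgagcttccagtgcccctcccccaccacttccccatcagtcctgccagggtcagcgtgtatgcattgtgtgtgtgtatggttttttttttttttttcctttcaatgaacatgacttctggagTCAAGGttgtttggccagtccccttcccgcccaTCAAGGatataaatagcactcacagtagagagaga
Rarb: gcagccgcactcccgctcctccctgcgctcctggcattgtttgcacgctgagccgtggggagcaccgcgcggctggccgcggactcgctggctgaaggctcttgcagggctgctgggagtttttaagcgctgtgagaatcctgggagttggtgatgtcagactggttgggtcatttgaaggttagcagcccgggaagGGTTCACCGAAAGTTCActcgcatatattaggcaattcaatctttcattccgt

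In Nr0b2 the TCAAGG matches span positions -68 to -63 and -35 to -30 from the start and the E-box -195 to -190, none overlapping another. Searched on both strands over 32851 promoters of the same length, TCAAGG was present in 12.5% and CACGTG in 6.02%. The Rarb repeat spans -53 to -37 and was found in 2 of the 32851. The core motif AGGTCA, shared by many receptors of the family, was present in 14% of promoters, and in 10 of the 53 promoters listed for 34 of the receptor genes. The matches describe these windows and do not show that any receptor was bound.

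In untreated Atp7b-/- against wild type, 11 of 35 receptor genes (31.4%) differed, where 24.6% of the 18193 genes did. The threshold was a Benjamini-Hochberg adjusted p under 0.05 in limma over all genes tested. This comparison is written below as without Atp7b, which names the groups and not a cause. The share among the receptors is thus near that of the whole array. Higher in untreated Atp7b-/- were Esr1, Rarb, Nr1i2, Nr2c1 and Nr1h3, which is 5 of 35 against 14.3% of all genes. Lower were Nr0b2, Rxra, Nr2f2, Ppara, Thrb and Hnf4a, which is 6 of 35 against 10.3% of all genes. The median change of the 35 was 0.13 on the log2 scale, where that of all genes was -0.05. In 14 of the 35 (40%) the arrays of both groups did not overlap, where 26.4% of all genes showed no overlap. After median centring 7 rose and 4 fell, where 2897 of all genes rose and 1359 fell. After quantile normalization 4 rose and 7 fell, where 2157 of all genes rose and 2192 fell. Only Nr0b2 and Esr1 moved by over 1 log2 unit.

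Zinc-treated against untreated Atp7b-/- differed in 5 of 35 receptor genes (14.3%), where 6.54% of all genes differed. With 1 array left out the count was 1 to 4, and it was 1 without zinc-treated replicate 1 or untreated replicate 4. Nr0b2, Nr5a2 and Pparg were higher with zinc (3 of 35, against 1.7% of all genes), and Esrra and Nr1h3 lower (2 of 35, against 4.84%). After quantile normalization 5 were higher and 1 lower, where 432 of all genes were higher and 648 lower. After median centring 2 were higher and 3 lower, where 1025 of all genes were lower and fewer higher. The arrays did not overlap for 3 genes that were higher, where 5.93% of all genes did so, and for 4 that were lower, against 9.39%. Zinc-treated Atp7b-/- against wild type differed in 3 of 35 (8.57%), where 7.62% of all genes differed: Esr1, Nr5a2 and Pparg were higher (against 4.89% of all genes) and 0 were lower by limma (against 2.73%). After quantile normalization 3 were higher and 2 lower, against 869 and 628 of all genes. The arrays did not overlap for 2 genes that were higher, against 7.88% of all genes, and for 4 that were lower, against 6.45%. At an adjusted p under 0.05, 14 receptor genes were thus called in at least 1 comparison and 21 in none. The comparisons share groups, so their calls are not independent of each other. For 10 of the 11 genes changed in untreated Atp7b-/-, the zinc-treated mean lay between the means of the other groups, as it did for 86.7% of all 4480 genes changed there. These genes were selected on the untreated arrays, so the count is a description and says nothing particular of the receptors. The exception was Nr1h3, whose zinc-treated mean lay slightly below wild type.

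**Figure D1:**
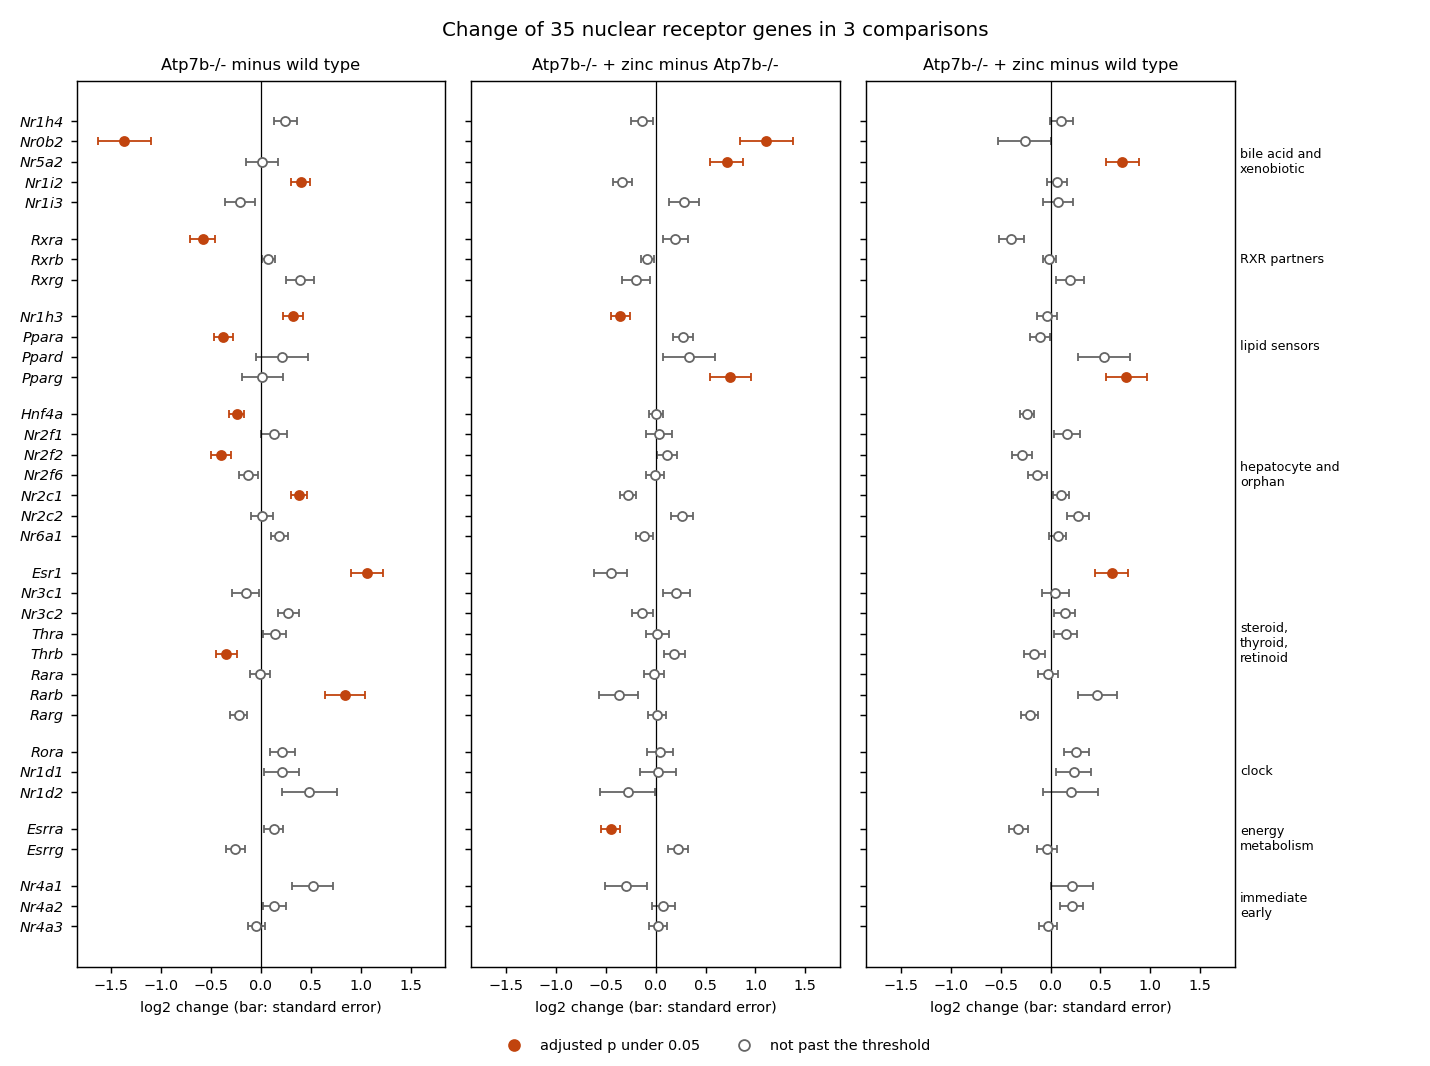
Log2 change of the 35 receptor genes (rows, grouped by role) in 3 comparisons, with the standard error from limma; filled points passed an adjusted p of 0.05. Nr0b2 lies at -1.37 in untreated Atp7b-/- against wild type and at 1.11 with zinc against without, and Esr1 at 1.06 and -0.45, the last not past the threshold.

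The bile acid circuit held the largest fall. Nr0b2 (gene 23957, chromosome 4, 133553376 to 133556686) encodes SHP, the repressor of bile acid synthesis. On the wild type arrays its level was 9.37, 9.67, 9.75 and 10.59 and 8.68, 8.73, 8.19 and 8.30 in untreated Atp7b-/-. With zinc it was 10.01, 8.99, 9.38 and 9.95. Every untreated array was below every other array, while wild type and zinc-treated arrays overlapped. It fell by 1.37 ± 0.26 (SE) without Atp7b, a 2.58-fold difference (adjusted p = 0.00197), and rose by 1.11 ± 0.26 with zinc (adjusted p = 0.0231). Zinc-treated and wild type differed by -0.26 (adjusted p = 0.626). The fall passed in each of 22 other settings. The rise with zinc lost its call without zinc-treated replicate 1 or 4 or untreated replicate 3 or 4, with changes of 0.97 to 1.05 and adjusted p from 0.0591 to 0.07.

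Nr1h4, the bile acid sensor FXR that induces Nr0b2, did not pass in any comparison. Its mean was 9.85 ± 0.18 (SD, n = 4) in wild type, 10.09 ± 0.16 in untreated and 9.96 ± 0.17 in zinc-treated Atp7b-/-, and its change without Atp7b was 0.25 (adjusted p = 0.135). Its arrays overlapped between all groups.

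Of 10 genes listed as induced by FXR, 4 fell and 2 rose without Atp7b, against 10.3% and 14.3% of all genes. Nr0b2 itself was among the 4, and the median was -0.20 against -0.05 for all genes. Osgin1, an oxidative stress gene, had a mean of 11.52 ± 0.50 in wild type, 9.89 ± 0.03 in untreated and 11.10 ± 0.24 in zinc-treated Atp7b-/-, a fall of 1.63 (adjusted p = 4.61e-05) and a rise of 1.22 (adjusted p = 0.0024). Abcb11, the bile salt export pump, lay at 11.72 to 12.24 in wild type, 11.35 to 11.64 in untreated and 12.01 to 12.24 in zinc-treated Atp7b-/-. It fell by 0.56 (adjusted p = 0.00221) and was 0.66 higher with zinc than without (adjusted p = 0.00267). Untreated arrays overlapped with neither other group for either gene.

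Other genes of that list went the other way. Abcb4, which moves phospholipid into bile, rose by 0.53 without Atp7b (adjusted p = 0.000362), and Apoc2, an activator of lipoprotein lipase, by 0.81 (adjusted p = 6.42e-06). With zinc against without, 4 of the 10 rose and 1 fell, against 1.7% and 4.84% of all genes. Slc27a5, an enzyme that activates bile acids, was among those that rose, by 0.31 (adjusted p = 0.0223). Without the arrays that carry pancreatic transcripts 3 rose and 1 fell. The part of RNA quality in these values was not tested.

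Of the 3 genes listed as repressed through FXR and SHP, 1 fell (against 10.3% of all genes) and 0 rose. It was Slc10a1, the uptake carrier for bile salts, at 13.00, 12.98, 13.16 and 13.21 in wild type and 10.90, 12.18, 12.12 and 11.89 in untreated Atp7b-/-. It fell by 1.31 (adjusted p = 0.000719) and rose by 0.82 with zinc (adjusted p = 0.0406), the latter lost without the arrays with pancreatic transcripts. The groups did not overlap, and untreated replicate 1 was the lowest array. Cyp7a1, the rate-limiting enzyme of bile acid synthesis, had a mean of 9.92 ± 0.96 in wild type, 10.68 ± 0.54 in untreated and 9.66 ± 0.84 in zinc-treated Atp7b-/-. Its change without Atp7b was 0.76 (adjusted p = 0.253), and its arrays overlapped throughout. Cyp8b1, which sets the share of cholic acid, differed by -0.12 (adjusted p = 0.611).

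**Figure D2:**
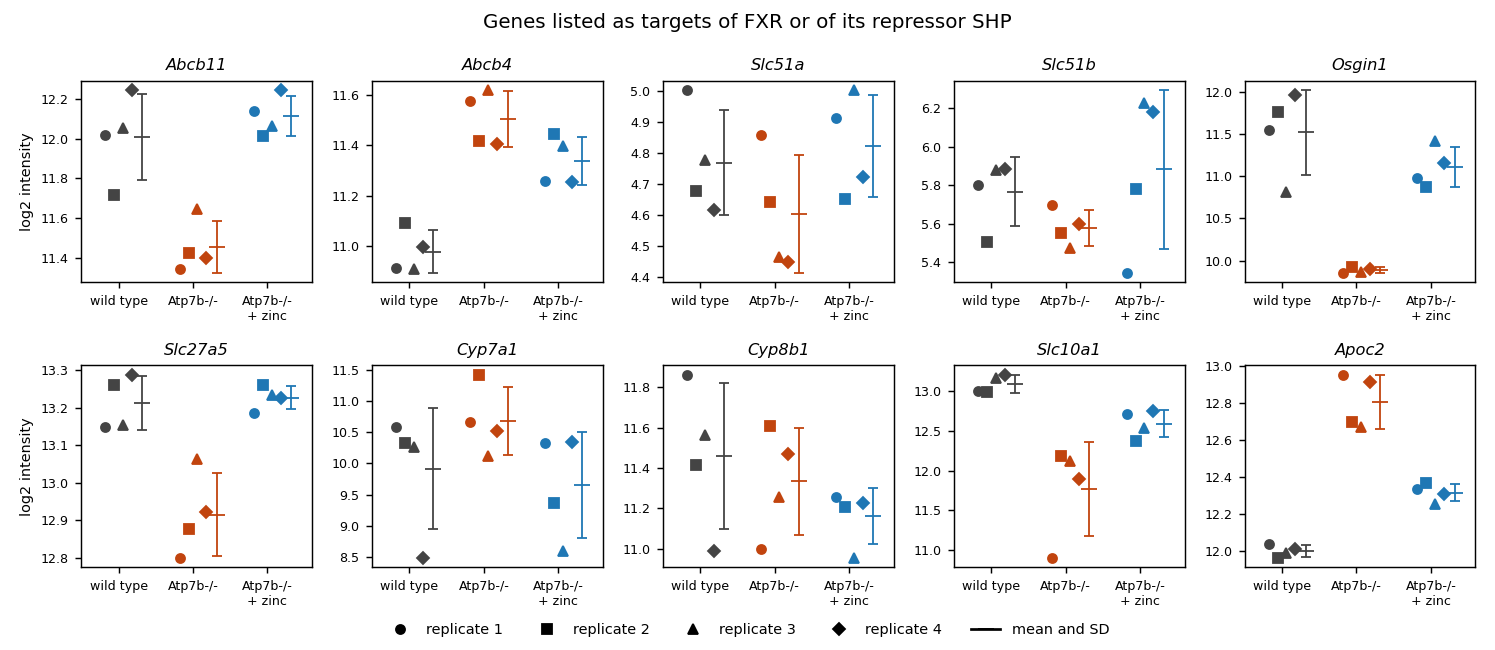
Log2 intensity of 10 genes listed as targets of FXR or of SHP on each array, with the mean and SD of each group of 4. Osgin1 in untreated Atp7b-/- lies between 9.85 and 9.93, below every other array, while Cyp7a1 overlaps between all groups.

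Nr5a2 (chromosome 1, 136842562 to 136960448) encodes LRH-1, an activator of bile acid genes that SHP inhibits. In wild type it lay at 9.57, 9.66, 9.60 and 10.30, in untreated Atp7b-/- at 10.03, 9.79, 9.60 and 9.75 and with zinc at 10.69, 10.61, 10.54 and 10.17. The zinc-treated arrays lay above all untreated ones and overlapped with wild type only through wild type replicate 4. It was 0.71 ± 0.16 (SE) higher with zinc than without (adjusted p = 0.0199) and 0.72 higher than in wild type (adjusted p = 0.0151), and differed by 0.01 without Atp7b (adjusted p = 0.971). The call rests on 1 of 4 probe sets. The others differed by -0.22 to 0.02 with zinc, and the mean of all probe sets differed by 0.12 (adjusted p = 0.442).

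Pancreatic acinar cells also express Nr5a2. Zinc-treated replicates 2 and 3, which carry acinar transcripts, had values of 10.61 and 10.54, and replicates 1 and 4 had 10.69 and 10.17. The part of these transcripts in the result was not tested. Without the 2 arrays the change with zinc was 0.64 and did not pass (adjusted p = 0.152). With 1 array left out the call with zinc was lost in 5 of 12 fits (without zinc-treated replicate 1, 2 or 3 or untreated replicate 3 or 4), at changes of 0.65 to 0.70. The call against wild type was lost without wild type replicate 1, at 0.65, and without the 2 arrays with acinar transcripts. It was also lost with the mean of all probe sets, at 0.18.

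Of the receptors for foreign compounds, 1 of 2 passed without Atp7b, where 24.6% of all genes passed. Nr1i2, or PXR, lay at 8.02, 8.17, 8.31 and 8.53 in wild type and at 8.61, 8.68, 8.76 and 8.56 in untreated Atp7b-/-. The groups did not overlap, and it rose by 0.40 (adjusted p = 0.0103), a call kept in 22 other settings. With zinc it lay between 8.27 and 8.39, below every untreated array, a change of -0.33 that did not pass (adjusted p = 0.062). Its other probe set differed by 0.25 and -0.31, neither past the threshold.

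Nr1i3, or CAR, did not pass in any comparison (-0.21 without Atp7b, adjusted p = 0.334, and 0.28 with zinc, adjusted p = 0.304). Its zinc-treated arrays fell apart, at 10.45 in replicate 1 and 10.38 in replicate 4 and at 9.89 and 9.70 in replicates 2 and 3, where the acinar transcripts lay. Without those 2 arrays it was 0.59 higher with zinc than without (adjusted p = 0.0228). Of 13 measured genes listed as CAR or PXR targets, 3 rose and 3 fell without Atp7b, against 14.3% and 10.3% of all genes. Gsta2, a glutathione transferase, rose by 1.36 and the cytochrome Cyp2c29 fell by 1.86 (adjusted p = 3.52e-05 and 0.00293). With zinc against without, 1 rose and 3 fell, against 1.7% and 4.84% of all genes. Without the arrays with acinar transcripts 2 rose and 1 fell.

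Among the retinoid X receptors, the partners of most receptors above, 1 of 3 changed without Atp7b, where 24.6% of all genes changed. Rxra (chromosome 2, 27676445 to 27763319), the main liver form, lay at 10.00, 10.07, 10.02 and 10.41 in wild type and at 9.48, 9.67, 9.58 and 9.42 in untreated Atp7b-/-. With zinc it was 9.96, 9.60, 9.44 and 9.92. On this probe set both mutant groups lay wholly below wild type. Rxra fell by 0.59 ± 0.13 (SE) without Atp7b, a 1.5-fold difference (adjusted p = 0.00427), kept in 22 other settings. A second probe set fell by 0.53 (adjusted p = 0.000852 over all probe sets) and was the only one to rise with zinc, by 0.41. The brightest probe set differed by 0.19 with zinc (adjusted p = 0.404). From wild type its zinc-treated arrays differed by -0.39, which did not pass (adjusted p = 0.0783). The other probe sets were -0.12 and -0.19 from wild type with zinc (adjusted p = 0.49 and 0.391 over all probe sets).

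Rxrb lay between 9.03 and 9.27 on every array and Rxrg differed by 0.39 without Atp7b. Rxrg did not pass (adjusted p = 0.0568), although its arrays did not overlap, at 6.63 to 6.89 in wild type and 6.89 to 7.40 in untreated Atp7b-/-. It passed in 8 of 22 other settings.

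The lipid sensors moved in different directions. Ppara, the receptor for fatty acids that drives their oxidation, lay at 10.14, 10.43, 10.20 and 10.30 in wild type and at 9.82, 10.08, 9.80 and 9.86 in untreated Atp7b-/-. It fell by 0.38 ± 0.10 (SE; adjusted p = 0.0148), with no overlap of the groups, and the call was kept in 22 other settings. A second probe set fell by 0.48 and the third differed by -0.24, not past the threshold. With zinc it lay between 9.94 and 10.33, 0.27 above untreated (adjusted p = 0.122). Its other probe sets were -0.04 and -0.03 from untreated with zinc, neither past the threshold, and the second was still -0.50 from wild type (adjusted p = 0.0188 over all probe sets).

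Of 17 measured genes listed as PPARA targets, 6 fell and 1 rose without Atp7b, against 10.3% and 14.3% of all genes. Their median was -0.34 against -0.05 for all genes. Fabp1, the liver fatty acid binding protein, fell by 0.52 (adjusted p = 0.000185) and the lipid droplet gene Plin2 by 0.61 (adjusted p = 0.00403). The hormone Fgf21 fell by 1.91 (adjusted p = 0.00551). Its wild type arrays were widely spread, at 6.67, 7.05, 7.30 and 9.12, and the untreated ones lay at 5.44 to 5.83. Acaa1b, a peroxisomal thiolase, fell by 0.45 (adjusted p = 0.00744). Pdk4, an inhibitor of pyruvate use, was the gene that rose, by 1.17. With zinc against without, 3 rose and 0 fell by limma, against 1.7% and 4.84% of all genes, with 5 at an unadjusted p under 0.05. Fabp1 rose by 0.42, Acaa1b by 0.53 and the pantetheinase Vnn1 by 1.45. Without untreated replicate 1 the counts were 8 lower and 1 higher without Atp7b, and 5 higher with zinc.

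Pparg, a driver of fat storage that liver normally holds at a low level, lay at 6.31 to 6.82 in wild type and 5.99 to 6.89 in untreated Atp7b-/-. With zinc it was 7.40, 7.29, 6.96 and 7.79, above every other array. It was 0.75 ± 0.20 (SE) higher with zinc than without (adjusted p = 0.0459) and 0.76 higher than in wild type (adjusted p = 0.0381). These calls lie close to the threshold. With 1 array left out the first was lost in 9 of 12 fits and kept without wild type replicate 2, zinc-treated replicate 3 or untreated replicate 3. Its change was then 0.54 (without untreated replicate 1) to 0.84, and its adjusted p reached 0.118. The second was lost in 8 of 12, without any of the wild type arrays, zinc-treated replicates 1, 2 and 4 or untreated replicate 2, with changes of 0.62 to 0.83. Ppard did not pass in any comparison, and zinc-treated replicate 4 had its highest value, 7.63.

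Nr1h3, or LXR alpha, a sensor of oxysterols in hepatocytes and macrophages, lay at 8.35 to 8.59 in wild type, 8.56 to 9.03 in untreated and 8.35 to 8.54 in zinc-treated Atp7b-/-. It rose by 0.32 without Atp7b (adjusted p = 0.0315) and was 0.35 lower with zinc than without (adjusted p = 0.0489). The first call was lost in 6 of 12 fits without 1 array (wild type replicate 1, 2 or 3, untreated replicate 1, 3 or 4), at changes of 0.24 to 0.34. The second was lost in 11 of 12 and kept only without untreated replicate 2. After quantile normalization the rise was 0.22 (adjusted p = 0.157). Of 8 macrophage markers, 5 fell and 0 rose without Atp7b, against 10.3% and 14.3% of all genes. Their means were 7.84 to 8.82 in wild type, 7.43 to 8.50 in untreated and 7.66 to 7.96 in zinc-treated Atp7b-/-. On untreated replicates 1 to 4 the marker means were 8.50, 7.43, 7.69 and 7.45, and Nr1h3 was 9.03, 8.56, 8.82 and 8.83. The part of the markers in the Nr1h3 result was not tested. Of 12 genes listed as LXR targets, 3 fell and 1 rose without Atp7b (against 10.3% and 14.3% of all genes), with a median of -0.07. The gene that rose was Lpl, lipoprotein lipase, by 1.95, while the sterol exporters Abca1 and Abcg8 fell by 0.38 and 0.50.

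Hnf4a, which maintains hepatocyte identity, was lower by a small step in both mutant groups. It lay at 12.74 to 12.89 in wild type, 12.50 to 12.67 in untreated and 12.48 to 12.68 in zinc-treated Atp7b-/-, without overlap between wild type and either mutant group. It fell by 0.25 ± 0.07 (SE) without Atp7b (adjusted p = 0.0233), and the zinc-treated arrays were -0.24 from wild type (adjusted p = 0.0589). Of its 3 other probe sets, 2 fell, by 0.56 and 0.46, and 1 differed by -0.08. The call was lost without wild type replicate 1 or untreated replicate 1 or 4, at -0.24 to -0.22, after median centring at -0.21, and with the _x_at and _s_at probe sets dropped at -0.08. Of 10 measured genes listed as HNF4A targets, 0 changed in limma without Atp7b, against 24.6% of all genes, with 1 at an unadjusted p under 0.05. Their median change was -0.002, where that of all genes was -0.05.

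Nr2f2, or COUP-TFII, a receptor without a settled ligand that marks veins and mesenchyme, lay at 9.85, 9.59, 9.72 and 9.78 in wild type. In untreated Atp7b-/- it was 9.03, 9.51, 9.37 and 9.42, below every wild type array. It fell by 0.40 ± 0.10 (SE; adjusted p = 0.0118), a call kept in 22 other settings. All 5 of its other probe sets changed in the same direction, and 3 of them passed. In whole liver, fewer cells of a type and less RNA per cell cannot be told apart. Of 8 endothelial markers 3 fell and 2 rose without Atp7b, against 10.3% and 14.3% of all genes. The marker means were 7.50 to 7.62 in wild type, 7.37 to 7.62 in untreated and 7.50 to 7.63 in zinc-treated Atp7b-/-. Their part in the result was not tested. Its relative Nr2f1 lay between 3.26 and 3.92, below the lower quartile of every array (4.13 to 4.29), and Nr2f6 did not pass.

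The testicular orphan receptor gene Nr2c1 lay at 8.25 to 8.52 in wild type and at 8.66 to 8.88 in untreated Atp7b-/-, without overlap, a rise of 0.38 (adjusted p = 0.00375). Its probe sets disagreed. One of the 4 others fell by 0.63, was 0.71 higher with zinc than without, and passed in both, and the mean of all probe sets differed by 0.04 (adjusted p = 0.752). Nr2c2, which pairs with Nr2c1, differed by 0.01 without Atp7b and by 0.26 with zinc (adjusted p = 0.171), and Nr6a1, an orphan of germ cells, by 0.19 and -0.11, with none past the threshold.

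Among the hormone receptors, Esr1 (gene 13982, chromosome 10, 4611989 to 5005633), the estrogen receptor alpha of hepatocytes, had the largest rise. The wild type arrays held 9.17, 9.02, 9.26 and 9.53 and the untreated Atp7b-/- arrays 10.37, 10.30, 10.14 and 10.42. With zinc it was 9.54, 9.77, 9.71 and 10.41. Every array of either mutant group lay above every wild type array, although zinc-treated replicate 1 did so by under 0.02. Esr1 rose by 1.06 ± 0.16 (SE), a 2.09-fold difference (adjusted p = 0.000372), in each of 22 other settings too. Its other probe sets rose by 1.49 and 0.30. With zinc it was -0.45 from untreated (adjusted p = 0.118), and without zinc-treated replicate 4, the array level with untreated mice, -0.64 (adjusted p = 0.0111).

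Against wild type, zinc-treated Esr1 was 0.61 higher (adjusted p = 0.0355). This call was lost in 6 of 12 fits without 1 array (wild type replicate 1, 2 or 3, zinc-treated replicate 2 or 4, untreated replicate 2), at 0.43 (without zinc-treated replicate 4) to 0.64. It was also lost without the arrays with acinar transcripts, at 0.73.

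Rarb, a retinoic acid receptor whose own gene is a textbook target of retinoic acid through the repeat shown above, lay at 6.37, 6.28, 6.90 and 6.50 in wild type. In untreated Atp7b-/- it was 7.19, 7.15, 7.38 and 7.72, above every wild type array, and with zinc 6.91, 6.77, 7.59 and 6.68. It rose by 0.84 ± 0.20 (SE; adjusted p = 0.00722), a call kept in 22 other settings. The change with zinc was -0.37 (adjusted p = 0.295), with zinc-treated replicate 3 alone inside the untreated range. Rara differed by -0.01 and Rarg by -0.22 without Atp7b, neither past the threshold (adjusted p = 0.956 and 0.077), while the second probe set of Rarg fell by 0.37. Of 5 measured genes listed as retinoic acid receptor targets, Rarb was the only one to pass without Atp7b, where 24.6% of all genes passed. Stellate cells store retinoids: 0 of 8 of their markers changed by limma without Atp7b, against 24.6% of all genes. The marker means were 8.15 to 8.28 in wild type and 8.07 to 8.32 in untreated Atp7b-/-. Their part in the result was not tested.

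Of the thyroid hormone receptors, Thrb, the main form in hepatocytes, lay at 6.26, 6.68, 6.60 and 6.58 in wild type and at 6.00, 6.24, 6.25 and 6.23 in untreated Atp7b-/-. The groups did not overlap but were parted by under 0.02. It fell by 0.35 (adjusted p = 0.0274), and the call was lost without wild type replicate 2, 3 or 4 or untreated replicate 1, at -0.33 to -0.29. Thra differed by 0.14 (adjusted p = 0.405). Thra and the clock gene Nr1d1 overlap on chromosome 11, where Thra spans 98740776 to 98769006 and Nr1d1 spans 98767932 to 98775377. Of 8 measured thyroid hormone target genes, 1 fell and 1 rose without Atp7b (against 10.3% and 14.3% of all genes), with a median of 0.34. With zinc against without, 1 rose and 2 fell, against 1.7% and 4.84% of all genes. Dio1, which activates the hormone, fell by 2.55 without Atp7b and rose by 1.98 with zinc (adjusted p = 7.01e-06 and 0.000427). Hr, a corepressor, did the reverse, with a rise of 1.35 and a fall of 1.29 (adjusted p = 0.00194 and 0.00917).

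The corticosteroid receptors did not pass on their brightest probe sets. Nr3c1, the glucocorticoid receptor, differed by -0.15 without Atp7b (adjusted p = 0.423). Among its 5 other probe sets, however, 2 fell, by 0.61 and 0.97, and the mean of all probe sets fell by 0.28 (adjusted p = 0.00786). The probe set that fell most rose by 0.68 with zinc. Nr3c2, the mineralocorticoid receptor, differed by 0.28 (adjusted p = 0.065). Of 10 genes listed as glucocorticoid receptor targets, 1 rose without Atp7b (against 14.3% of all genes), the phosphatase gene Dusp1, by 1.89.

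The clock receptors did not pass in any comparison. Nr1d1 and Nr1d2, the REV-ERB repressors of the circadian clock, differed by 0.21 and 0.48 without Atp7b (adjusted p = 0.41 and 0.212). Nr1d2 spread widely within groups, from 9.80 to 10.74 in wild type and from 9.83 to 11.16 with zinc. Rora, which activates through the same DNA motif, differed by 0.21 (adjusted p = 0.236). One of its 9 probe sets rose by 0.50 and 1 fell by 0.35. Of 8 genes listed as repressed by REV-ERB, 3 fell and 2 rose without Atp7b, against 10.3% and 14.3% of all genes. E2f8, a cell cycle repressor, fell by 1.93 and rose by 1.21 with zinc, and Npas2, a clock activator, rose by 0.98.

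Esrra, the estrogen-related receptor that with PGC-1 coactivators drives mitochondrial genes, was lower with zinc. It lay at 8.31 to 8.76 in wild type, 8.47 to 8.73 in untreated and 8.11 to 8.22 in zinc-treated Atp7b-/-, below every other array. The difference from untreated was -0.45 ± 0.09 (SE; adjusted p = 0.0118) and that from wild type -0.32 (adjusted p = 0.0546). The first call was kept in 21 of 22 other settings and lost without the arrays with acinar transcripts, at -0.47 (adjusted p = 0.0713). The second probe set differed by -0.38 and -0.47, and only the difference from wild type passed there. Of 9 measured genes listed as its targets, Esrra itself was the only one to differ with zinc, against 6.54% of all genes. The median of the 9 was -0.03. Esrrg did not pass on its brightest probe set, at -0.26 without Atp7b, and 1 of its others fell by 0.65.

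The immediate early receptors of the Nr4a group, induced within minutes of many stimuli, did not pass. Nr4a1 lay at 6.66 to 7.37 in wild type and at 7.03 to 7.71 in untreated Atp7b-/-, a change of 0.52 (adjusted p = 0.0868). Nr4a2 differed by 0.13 and Nr4a3 by -0.05. All 5 other probe sets of Nr4a2 had a negative sign without Atp7b, and none of these differences passed.

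**Figure D3:**
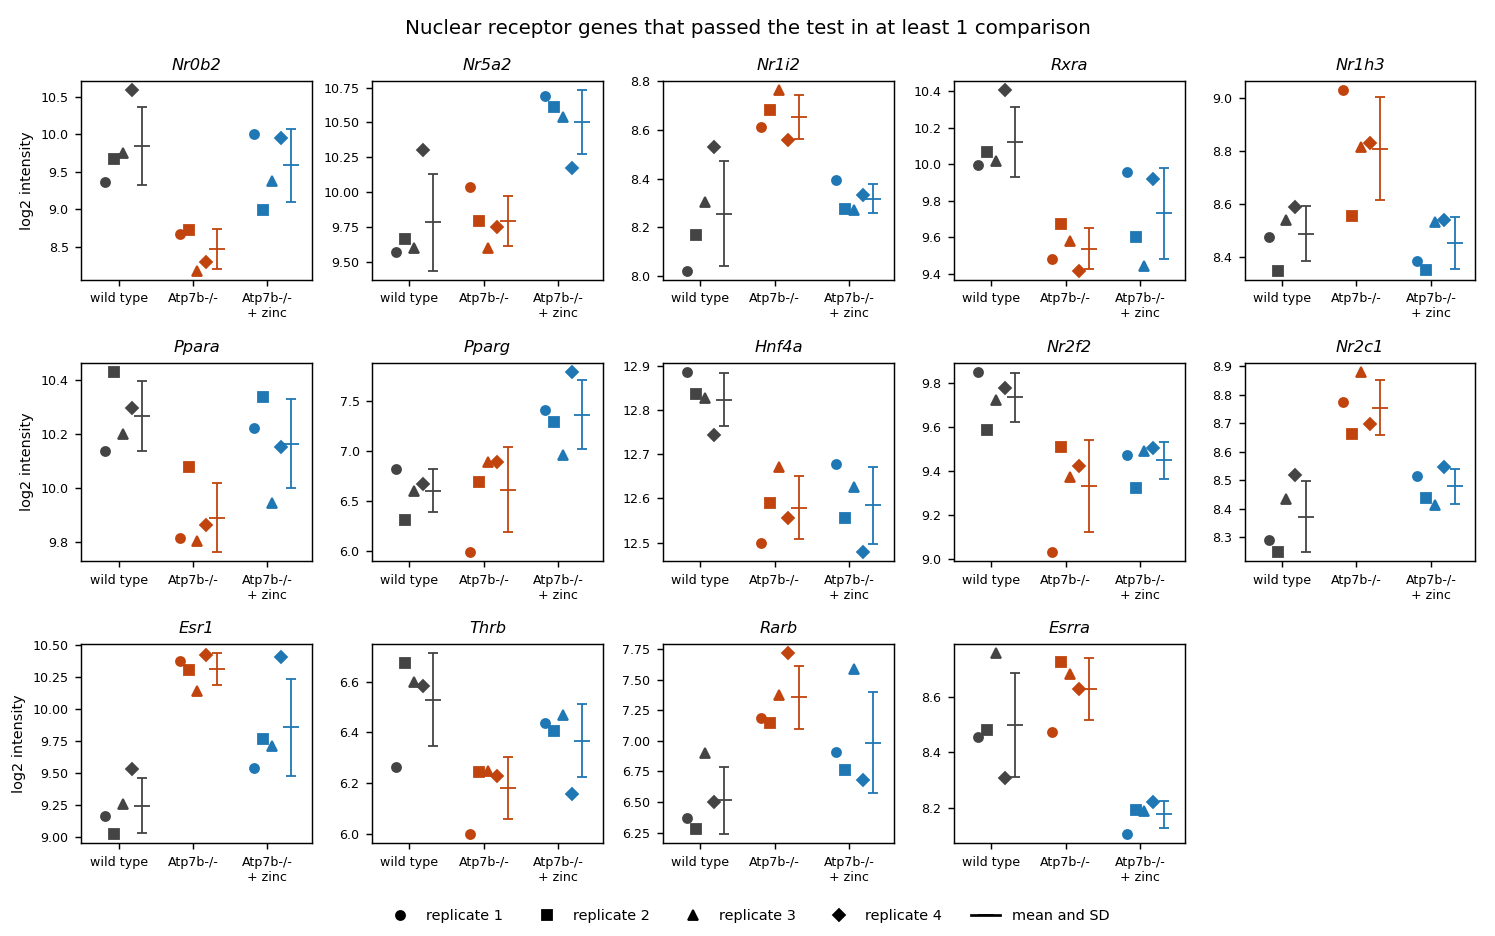
Log2 intensity on each array for the 14 receptor genes that passed in at least 1 comparison, with the mean and SD of each group of 4. The means of Nr0b2, Rxra, Ppara, Thrb and Nr2f2 are lowest in untreated Atp7b-/-, and those of Pparg and Nr5a2 are highest with zinc.

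**Figure D4:**
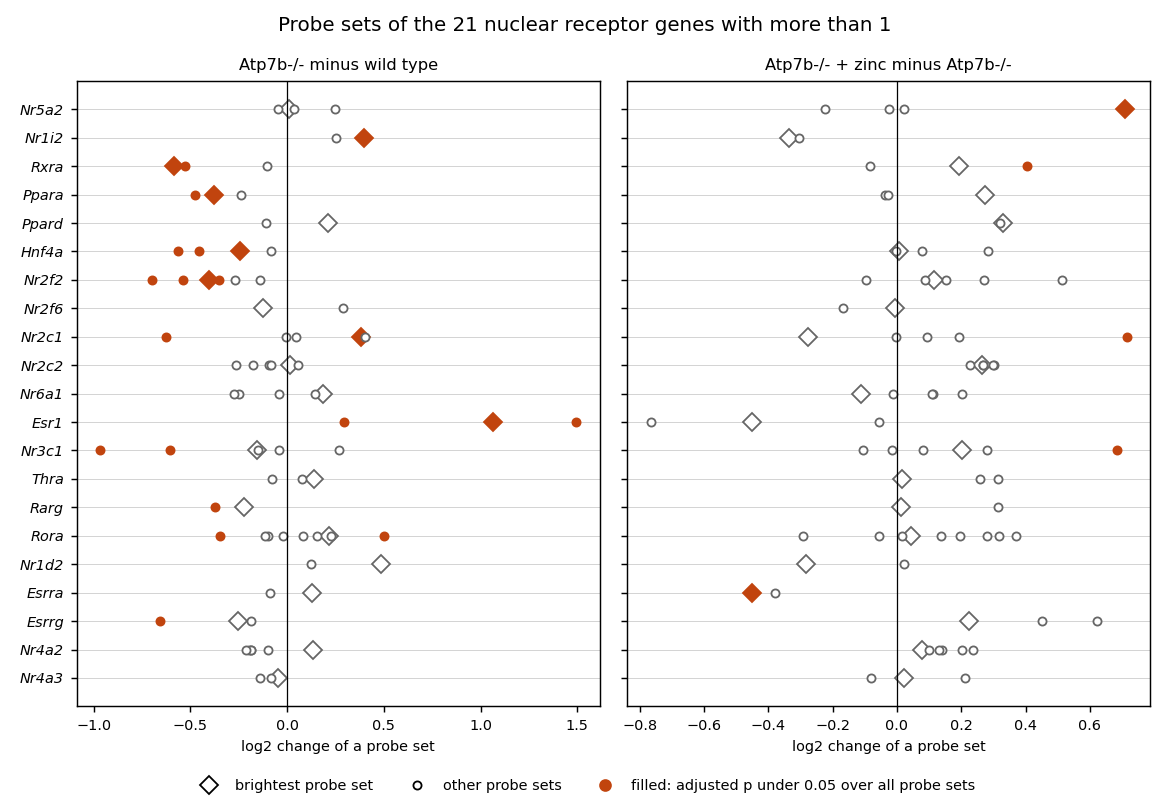
Log2 change of every probe set of the 21 receptor genes with more than 1, without Atp7b (left) and with zinc (right); diamonds are the brightest probe sets, and filled points passed an adjusted p of 0.05 over all probe sets. The probe sets of Esr1 and Nr2f2 keep to one side on the left, those of Nr2c1 and Rora spread over both, and the 4 of Nr5a2 range from -0.22 to 0.71 on the right.

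Of the family members outside the 36, 9 of 13 were measured. In limma 0 changed without Atp7b, against 24.6% of all genes, with 1 at an unadjusted p under 0.05. The same 9 gave 0 calls in the other comparisons (against 6.54% with zinc and 7.62% for zinc-treated against wild type), with 0 at an unadjusted p under 0.05 in each. Group means of Vdr, Hnf4g, Nr0b1, Nr2e1 and Pgr were 3.46 to 4.12, under the lower quartiles of the arrays (4.13 to 4.29). Signal near background limits what their lack of calls can show. Of 15 coactivator genes, 2 rose and 2 fell without Atp7b, against 14.3% and 10.3% of all genes. With zinc 0 changed by limma, where 6.54% of all genes did, with 3 at an unadjusted p under 0.05. Lpin1, a lipid phosphatase that coactivates PPARA, rose by 1.62, Med1, the Mediator subunit that binds receptors, fell by 0.30, and Pprc1 fell by 0.53. Of 10 measured corepressor genes, 2 rose and 2 fell without Atp7b, against 14.3% and 10.3% of all genes. Hr and Lcor were those that rose. Hdac3, the deacetylase recruited by several receptors, was among those that fell, at -0.19.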

How the data were processed

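Total liver RNA was labelled and hybridised to Affymetrix GeneChip mouse arrays, per the labels' protocols. The deposited values are log2 intensities. How they were normalized is not stated in the labels. They ran from 2.22 to 15.2, with array medians of 5.63 to 5.71, and were used without further scaling. Of 45101 probe sets, 34945 carry exactly 1 gene symbol, updated through the gene ID to RefSeq (GRCm38.p6). For each gene the brightest probe set over 12 arrays was kept. Groups were compared in 1 fit of group means over 12 arrays with limma 3.58.1 in R 4.3.3 (lmFit, contrasts.fit, eBayes), adjusted over 18193 genes, and called at an adjusted p under 0.05. Every receptor of the list is named. From each target list at most 4 genes with the smallest adjusted p in a comparison were to be named, and Pdk4, Npas2 and Cyp4a14 were added after their values were seen, as were the promoters and motifs. The receptors and lists were chosen with earlier results of these data known. The fit was tested on simulated data. Probe sets were also tested singly, adjusted over all probe sets with 1 symbol. Dose, batch and scan data were not used here, and the number of arrays limits the precision.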

Additional observations from a re-analysis of the deposited data

Results flagged for a closer look

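In 6 of 105 groups of 4 arrays, 1 array lay far from the other 3 by Dixon's ratio, and chance flags about 1 in 20 such groups. Ppard in untreated replicate 1 was 5.83, against 6.61 to 6.71 on the others. Thrb in untreated replicate 1 was 6.00, against 6.23 to 6.25. Rara in untreated replicate 3 was 6.29, against 6.54 to 6.55. Nr5a2 in wild type replicate 4 was 10.30, against 9.57 to 9.66. Nr1d2 in wild type replicate 1 was 9.80, against 10.62 to 10.74. Nr2f2 in zinc-treated replicate 2 was 9.32, against 9.48 to 9.51.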

How the results depend on the processing

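Of 19 called differences of single receptor genes, 7 kept their call and direction in 22 other settings: those of Esr1, Rarb, Nr1i2, Nr0b2, Rxra, Nr2f2 and Ppara in untreated Atp7b-/- against wild type. The other 12 lost it in at least 1, and 17 of 86 uncalled differences passed in at least 1. None of the called differences changed sign. The count of changed receptors without Atp7b, 11, ranged from 8 to 12 with 1 array left out and stayed within 1.5 times in the other settings. With zinc against without, the count of 5 ranged from 1 to 4 with 1 array left out and was 3 without the arrays with acinar transcripts, a setting added after seeing the data. It fell to 1 without zinc-treated replicate 1 or untreated replicate 4, to 2 without zinc-treated replicate 2 or untreated replicate 3, and to 3 without wild type replicate 3, zinc-treated replicate 3 or 4 or untreated replicate 1. Zinc-treated against wild type, the count of 3 ranged from 0 (without wild type replicate 1) to 5 (without untreated replicate 1), and was 1 without wild type replicate 2 or 3, zinc-treated replicate 2 or 4 or untreated replicate 2. Quantile normalization gave 5, leaving out dim genes 5, and it was 1 without the arrays with acinar transcripts. Fewer arrays or genes enter those fits by construction; for quantile normalization the cause was not tested. With the replicate number as a block the counts were 12, 4 and 3, Pparg lost its call with zinc and Rxrg gained one without Atp7b. The numbers were not taken as pairing the arrays, since only 5 of 12 same-numbered pairs correlated above 0.1 in their deviations from group means (range -0.13 to 0.24, median 0.04, against a median of -0.01 for other pairs), and not every array correlated best with its own number. Signal near background limits Nr2f1.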

Other observations

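Among the zinc-treated arrays, Nr0b2, Rxra and Nr1i3 were higher in replicates 1 and 4 than in 2 and 3. Nr0b2 was 10.01 and 9.95 in replicates 1 and 4 and 8.99 and 9.38 in replicates 2 and 3. Rxra was 9.96 and 9.92 against 9.60 and 9.44. Nr1i3 was 10.45 and 10.38 against 9.89 and 9.70. The PPARA target Cyp4a14, a fatty acid hydroxylase, was 10.84 and 11.82 in replicates 1 and 4 and 4.88 and 4.85 in replicates 2 and 3, where wild type arrays ranged from 5.39 to 8.68. These genes were chosen after their values were seen. Replicates 2 and 3 are those with acinar transcripts, and the part of these transcripts was not tested. Nr5a2 did not follow the pattern, at 10.69 and 10.17 against 10.61 and 10.54. Ppara did not either, at 10.22 and 10.15 against 10.33 and 9.94, and Nr1h4 was 10.21 and 9.81 against 9.91 and 9.90.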
